A study of Mus musculus with 9 samples.

Results

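The genes described here mark the cells of tumor blood and lymphatic vessels. They are 41 genes taken by symbol from a table of 19481 genes, and they fall into 7 lists by role: 16 genes of the endothelial surface and junctions, 6 genes for VEGF and TIE receptors and angiopoietins, 3 genes of the apelin and tip cell group, 5 Notch genes, 4 endothelial transcription factors, 3 lymphatic genes and 4 pericyte genes. The set was drawn up around *Aplnr*, *Heyl* and *Abcc9*, which had already been seen to differ between these tumors, so their values are given as a description with no test. All 41 symbols had a row, and 40 passed the filter on low counts. *Prox1* did not, which leaves 37 genes other than those 3 with a test.

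The tumors came from the KLN205 line of murine squamous lung carcinoma, injected subcutaneously into the flank of immunocompetent female DBA/2 mice aged 6 to 8 weeks. The carcinoma cells carried a doxycycline-inducible shRNA, either a scrambled control or 1 of 2 shRNAs against the protease gene *Tmprss11b*, numbered sh2 and sh3 in the labels, and all 3 groups received doxycycline in the drinking water once the mean tumor volume had reached 100 mm3. Each group had 3 tumors, resected on day 50, and RNA of whole tumor pieces was sequenced. The shRNA was in the injected cells only, so vessel cells of the mouse had no construct of their own, and whether a construct was carried by 1 clone or a pool is not given in the sources used here.

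Total counts on genes were 20653219 to 24047784 per tumor, so a level of 3 counts was 0.123 to 0.152 CPM (the count of a gene scaled to the normalized total of its tumor), a limit that covers counting error only. The targeted gene, listed under its older symbol *Tmprss11bnl*, had 18, 51 and 42 counts in the control tumors, 7, 2 and 5 in the sh2 tumors and 10, 4 and 5 in the sh3 tumors. The tumors were not alike within groups. Replicate 1 of sh3 lay farthest from its group, with a chi-square distance per gene of 212 to sh3 replicate 2 against 30.8 to 47.0 among the control tumors. Skeletal muscle genes were high in control replicate 3 and sh3 replicate 1, where *Acta1*, the actin of muscle fibres, reached 1127 and 412 CPM, against 0.501 to 130 CPM in the other tumors.

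Blood vessels are tubes of endothelial cells held together by cadherin and claudin junctions and wrapped by mural cells, which are pericytes on capillaries and smooth muscle on larger vessels. Sprouting is led by tip cells that respond to VEGF through its receptors, while DLL4 on one cell and Notch receptors on its neighbours set which cell leads. Endothelial Notch ligands also signal to NOTCH3 on mural cells, and the apelin receptor, the TIE2 receptor and its angiopoietin ligands act in vessel growth and maturation.

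In a Notch signal the cleaved receptor enters the nucleus and binds DNA through RBPJ, whose core site is TGGGAA, so this motif was looked up where the members' starts are. RefSeq promoter windows of 300 bases (250 before a start and 50 after it, mouse assembly GRCm38.p6) were at hand for 23 of the 41 genes, in 28 windows. The 6 letters occurred, on either strand, in 7 of the 28 windows, or 25%, and in 25.6% of all 32851 windows. The longer form GTGGGAA occurred in 2 of the 28, those of *Kdr* and *Tie1*, and in 6.38% of all windows. The stretches of 30 bases around each match for which the window holds 12 bases on both sides are shown to let the contexts be compared. Each is read 5′ to 3′ on the strand of the motif, and the capitals mark the motif.
Abcc9: ggtggtcctgaaTGGGAAtggccggagtga
Kcnj8: aatccgggctacTGGGAAccgagctggctc
Kdr: ggggagtgggcgTGGGAAaccgggaaaccc
Tie1: agggagagagggTGGGAAgagttgtcgcct
Egfl7: cgcatcctttgaTGGGAAgttaggcccagc
Erg: ttgtgctaagtcTGGGAAatgaagtcagcc
The *Abcc9* stretch is chr6:142702478-142702507 on the minus strand, and its motif begins 221 bases before the start this window was cut around, at 142702274, which lies 492 bases inside the outermost end of the gene record. The *Kcnj8* stretch is chr6:142571597-142571626 on the minus strand, and its motif begins on the first transcribed base. Those of *Kdr*, chr5:75978566-75978595 on the minus strand, and *Egfl7*, chr2:26580909-26580938 on the plus strand, lie on the strand of their gene, whereas those of *Tie1*, chr4:118489848-118489877, and *Erg*, chr16:95459347-95459376, both on the plus strand, lie opposite to it. The starts of the *Kdr* and *Erg* windows also lie inside their gene records, by 617 and 127252 bases, and those of *Kcnj8*, *Egfl7* and *Tie1* are the outermost ones. A match is a description of letters, and binding was not measured.

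The deposited values per transcript length (TPM) rank the genes by level. *Pecam1*, the adhesion molecule CD31, was highest with a mean of 57.3 TPM over the 9 tumors, followed by *Plvap*, the protein of endothelial diaphragms, at 49.1 TPM and *Eng*, the TGF-beta co-receptor endoglin, at 47.1 TPM. Neighbours in this order overlapped, since *Pecam1* ranged from 40.3 to 75.4 TPM over the tumors and *Plvap* from 35.1 to 72.0 TPM. Among pericyte genes *Rgs5*, a regulator of G-protein signalling, was highest at 31.7 TPM and *Cspg4*, the proteoglycan NG2, lowest at 4.07 TPM. The 3 genes the set was drawn around lay in the middle and lower ranks, with *Aplnr* 16th of 41 at 13.2 TPM, *Abcc9* 26th at 7.39 TPM and *Heyl* 31st at 5.46 TPM. At the low end *Sox17* had 0.816 TPM and *Prox1* 0.104 TPM. The endothelial markers *Pecam1* and *Cdh5* and the pericyte marker *Rgs5* were present in every tumor, with at least 256 counts each.

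**Figure D1:**
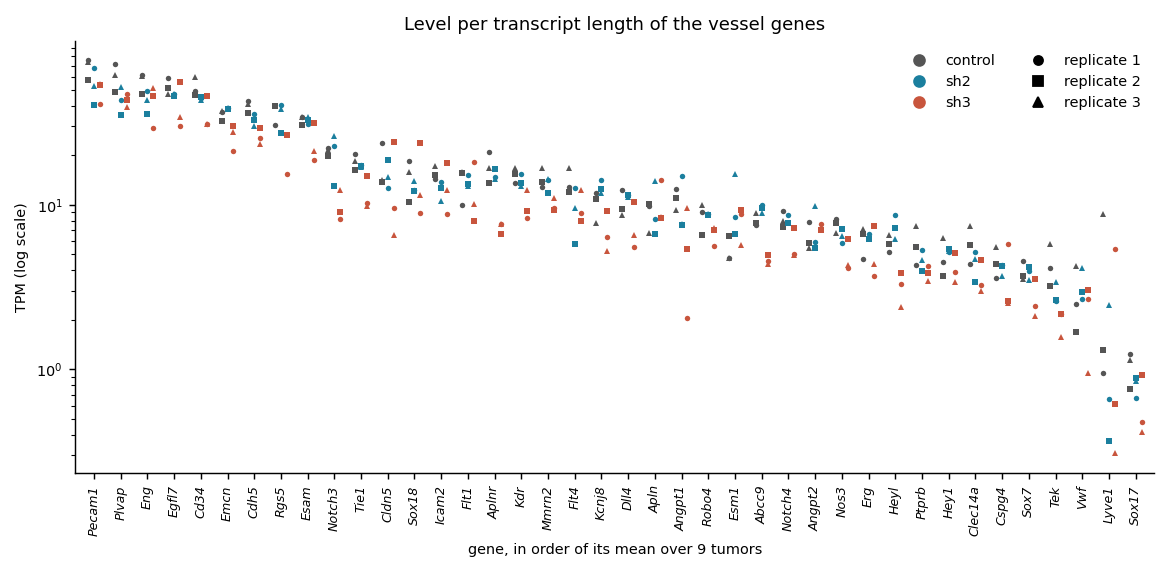
Level per transcript length of 40 vessel genes in 9 tumors, in TPM on a log axis, with genes in order of their mean (*Prox1*, at 0 in some tumors, is left out). Colours are the groups and symbols the replicates, and *Pecam1* at the left and *Sox17* at the right differ from 57.3 to 0.816 TPM in their means.

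The apelin receptor gene *Aplnr*, which marks endothelial cells of growing vessels, stood at 32.1, 20.7 and 24.2 CPM with the control, at 21.7, 26.8 and 22.1 CPM with sh2 and at 11.6, 12.9 and 13.0 CPM with sh3. Every sh3 tumor lay below every other tumor, and the sh2 tumors lay within the range of the controls. The means were 25.7 ± 5.83 CPM (SD, n = 3) with the control, 23.5 ± 2.80 CPM with sh2 and 12.5 ± 0.809 CPM with sh3. Against the control, the log2 fold change of *Aplnr* was -1.04 ± 0.19 (SE) with sh3 and -0.12 ± 0.19 with sh2, and between the constructs, sh3 against sh2, it was -0.91 ± 0.19. Without sh3 replicate 1, the difference from the control was -0.98. In bulk tumor RNA, fewer cells of a type and less RNA of a gene per cell cannot be told apart, which holds for this and all later differences.

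The ligand of this receptor did not share the pattern. *Apln* was at 13.2, 13.6 and 8.56 CPM with the control, 10.8, 9.52 and 19.1 CPM with sh2 and 19.0, 14.2 and 12.6 CPM with sh3, and all groups overlapped. *Esm1*, which encodes the secreted proteoglycan endocan of tip cells, had 4.30, 5.79 and 4.05 CPM with the control, 7.37, 6.33 and 14.1 CPM with sh2 and 7.86, 10.6 and 5.69 CPM with sh3. Every sh2 tumor and 2 of the sh3 tumors exceeded every control tumor, and the third lay just below the highest control. For *Esm1* the log2 fold change was 0.97 ± 0.37 with sh2 (unadjusted p = 0.0258) and 0.77 ± 0.37 with sh3 (unadjusted p = 0.0640), with an FDR from edgeR's quasi-likelihood test of 0.999 and 0.760. Without sh2 replicate 3, its highest tumor, the difference with sh2 was 0.55.

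**Figure D2:**
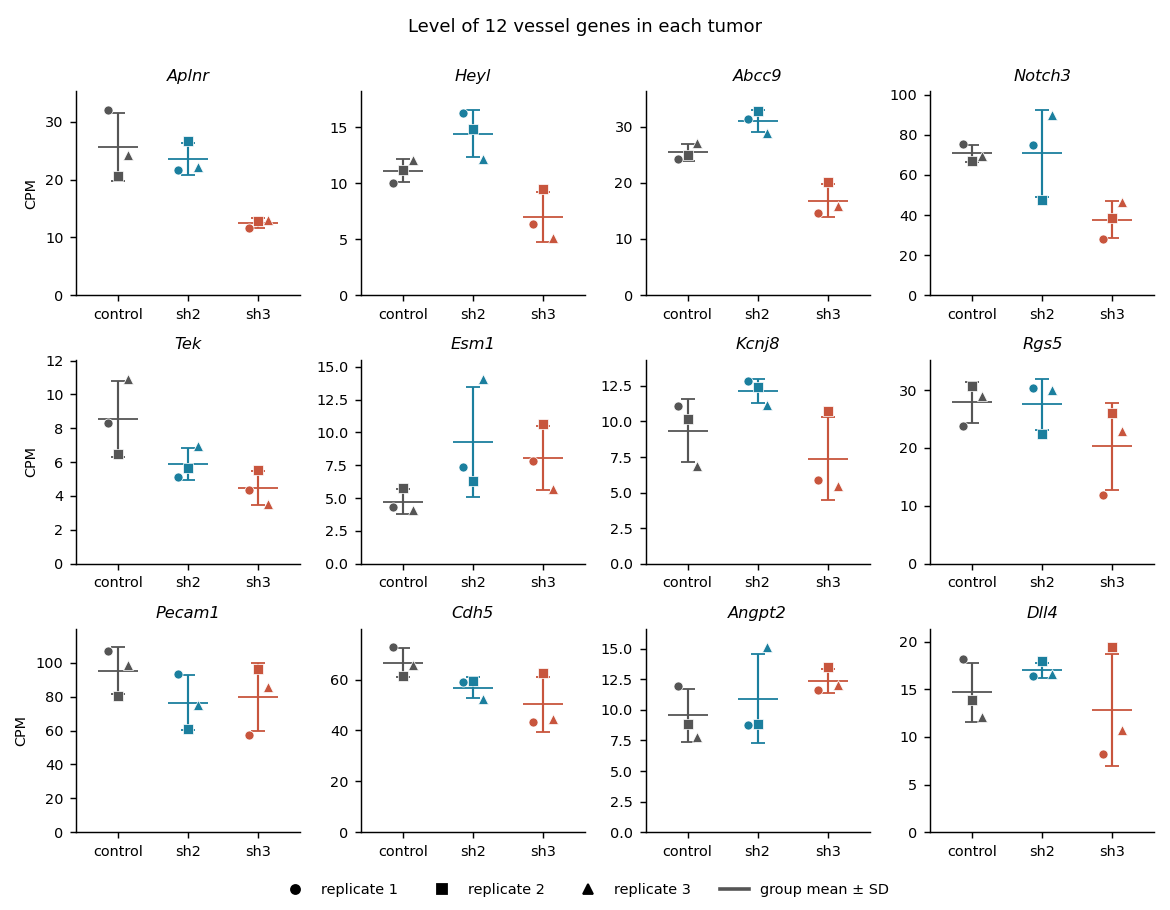
CPM of 12 vessel genes in each tumor, with 1 panel a gene, the groups on the horizontal axis, symbols for replicates and bars for the mean ± SD of 3 tumors. *Aplnr*, *Heyl*, *Abcc9*, *Notch3* and *Tek* are the panels in which every sh3 tumor lies below every control tumor, and for *Esm1* the sh2 tumors lie above the controls.

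*Heyl*, a Hes-related repressor that Notch induces in mural cells, was at 10.1, 11.2 and 12.1 CPM with the control, 16.3, 14.9 and 12.1 CPM with sh2 and 6.38, 9.45 and 5.13 CPM with sh3. Every sh3 tumor was below every control tumor. The sh2 tumors were above the controls, although sh2 replicate 3 and control replicate 3 gave the same value to 3 digits, and on the deposited TPM sh2 replicate 3 was the lower of this pair, at 6.18 against 6.58 TPM. Mean levels of *Heyl* were 11.1 ± 1.02, 14.4 ± 2.12 and 6.99 ± 2.22 CPM (SD, n = 3) with the control, sh2 and sh3. Against the control, *Heyl* had a log2 fold change of 0.38 ± 0.25 with sh2 and -0.67 ± 0.25 with sh3, and sh3 against sh2 gave -1.05 ± 0.25. The value with sh3 was -0.61 without sh3 replicate 1. Its paralog *Hey1*, the endothelial target of the same pathway, was at 3.48 to 5.61 CPM with the control, 4.72 to 5.41 CPM with sh2 and 3.55 to 6.05 CPM with sh3, so its groups overlapped.

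The receptor gene *Notch3*, which is expressed by mural cells, had 75.7, 67.1 and 69.5 CPM with the control, 75.2, 47.3 and 90.0 CPM with sh2 and 27.8, 38.6 and 46.4 CPM with sh3. All 3 sh3 tumors were lower than the lowest of the other 6, and the sh2 tumors spread to both sides of the controls. The log2 fold change of *Notch3* with sh3 was -0.91 ± 0.25 against the control (unadjusted p = 0.00554) and -0.91 ± 0.25 against sh2 (unadjusted p = 0.00550), with FDRs of 0.753 and 0.673 by edgeR. It was -0.73 against the control without sh3 replicate 1. The ligand gene *Dll4* was at 18.1, 13.9 and 12.1 CPM with the control, 16.4, 17.9 and 16.6 CPM with sh2 and 8.18, 19.4 and 10.8 CPM with sh3. The endothelial receptor gene *Notch4* was at 25.8, 20.5 and 21.2 CPM with the control, 23.8, 23.4 and 22.2 CPM with sh2 and 14.1, 26.0 and 15.6 CPM with sh3. Both of these genes were low in sh3 replicates 1 and 3 and highest of all tumors in sh3 replicate 2, so their sh3 range held that of the controls.

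Other genes of the Notch pathway were tested as a list of 12 (receptors *Notch1* and *Notch2*, ligands, targets and cofactors), and none had an FDR under 0.05. With sh3 against the control, 5 had a negative and 7 a positive log2 fold change, where 45.1% of all genes were negative. The median was 0.03. None had an unadjusted p under 0.05, where 3.13% of all genes were lower and 3.5% higher at this p. In the comparison of sh3 with sh2 the receptor gene *Notch2* was the 1 gene under 0.05, at -0.49 (unadjusted p = 0.0279), where 3.66% of all genes were lower.

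Among pericyte genes, *Abcc9* and *Kcnj8* encode the 2 subunits, SUR2 and Kir6.1, of the ATP-sensitive potassium channel of vascular mural cells. They lie side by side on chromosome 6, *Kcnj8* at 142564837 to 142571614 and *Abcc9* at 142587862 to 142702766 (GRCm38.p6). *Abcc9* was at 24.2, 25.0 and 27.1 CPM with the control, 31.4, 32.8 and 29.0 CPM with sh2 and 14.6, 20.2 and 15.8 CPM with sh3. The 3 groups did not overlap in CPM, with sh2 above and sh3 below the controls, although in TPM sh2 replicate 3 and control replicate 3 were both at 8.87. Mean levels of *Abcc9* were 25.4 ± 1.46, 31.0 ± 1.95 and 16.8 ± 2.95 CPM (SD, n = 3) in the same order. The log2 fold changes of *Abcc9* were 0.29 ± 0.15 with sh2, -0.60 ± 0.16 with sh3 and -0.88 ± 0.16 for sh3 against sh2. Leaving out sh3 replicate 1 gave -0.50 with sh3. Muscle fibres can also express *Abcc9*. The muscle gene *Acta1* ran from 6.17 to 1127 CPM with the control, from 0.501 to 49.3 CPM with sh2 and from 32.0 to 412 CPM with sh3, and its part in the *Abcc9* values was not tested.

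*Kcnj8* was at 11.1, 10.1 and 6.84 CPM with the control, 12.8, 12.4 and 11.2 CPM with sh2 and 5.92, 10.8 and 5.48 CPM with sh3. The sh2 tumors were above both other groups, although sh2 replicate 3, at 11.2 CPM, was barely above control replicate 1, at 11.1 CPM. The sh3 and control tumors overlapped. Against sh2 the log2 fold change of *Kcnj8* with sh3 was -0.72 ± 0.30 (unadjusted p = 0.0412, FDR = 0.673 by edgeR), and against the control it was -0.34 ± 0.30 (unadjusted p = 0.285). *Rgs5* was at 23.9, 30.8 and 29.1 CPM with the control, 30.3, 22.5 and 30.0 CPM with sh2 and 11.8, 26.1 and 23.0 CPM with sh3, and its log2 fold change with sh3 was -0.46 (95% interval -1.08 to 0.17). The low value was that of sh3 replicate 1, without which the difference was -0.18. *Cspg4* was highest in that same tumor, with 12.4, 15.0 and 17.9 CPM with the control, 14.4, 15.5 and 12.9 CPM with sh2 and 19.7, 11.4 and 9.75 CPM with sh3.

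Of 18 other mural genes, 16 had a negative log2 fold change with sh3 against the control, where 45.1% of all genes did, with a median of -0.41 against 0.03 over all genes tested. Without control replicate 3 the median was -0.13, with 15 of 18 negative, where 44.1% of all genes were. Without sh3 replicate 1 the median was -0.51, with 13 negative, where 49.1% of all genes were. The genes with an unadjusted p under 0.05 were *Pdgfrb*, the PDGF receptor that pericytes need, at -0.66 (unadjusted p = 0.0215) and *Myh11*, smooth muscle myosin, at -0.71 (unadjusted p = 0.0374), both lower as were 3.13% of all genes at this p, and neither passed an FDR of 0.05. With sh2 the same list had 7 negative and 11 positive values and a median of 0.08. The PDGF list of 6 ligands and receptors had 4 negative values in each of the 4 contrasts, where 45% to 48.2% of all genes were negative. Its median was -0.48 with sh3 and -0.09 with sh2.

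Among the receptors, *Tek*, which encodes TIE2, had 8.31, 6.46 and 10.9 CPM with the control, 5.10, 5.65 and 6.92 CPM with sh2 and 4.35, 5.54 and 3.51 CPM with sh3. All sh3 tumors were below all controls, and 2 of the 3 sh2 tumors were as well. The log2 fold change of *Tek* was -0.94 ± 0.29 with sh3 (unadjusted p = 0.00938, FDR = 0.753 by edgeR), -0.54 ± 0.28 with sh2 (unadjusted p = 0.0897) and -0.74 ± 0.24 for the mean of both against the control (unadjusted p = 0.0129). The difference with sh3 was -0.92 without sh3 replicate 1 and -0.74 without control replicate 3, the highest tumor. Without that control tumor the difference of *Tek* was -0.32 with sh2 and -0.53 for the mean of both. *Angpt1*, the TIE2 agonist made by mural and stromal cells, was at 23.2, 20.1 and 16.3 CPM with the control, 27.0, 14.8 and 14.3 CPM with sh2 and 3.75, 12.5 and 19.8 CPM with sh3. Its value in sh3 replicate 1 was 7.20-fold below the highest tumor, the largest such ratio among the members apart from *Lyve1* and *Prox1*. *Angpt2*, the context-dependent antagonist of activated endothelium, was at 12.0, 8.82 and 7.82 CPM with the control, 8.76, 8.84 and 15.1 CPM with sh2 and 11.6, 13.5 and 12.0 CPM with sh3, a log2 fold change of 0.37 with sh3 (95% interval -0.23 to 0.98).

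The main VEGF receptor gene *Kdr* was at 31.5, 35.5 and 36.7 CPM with the control, 34.9, 33.7 and 30.5 CPM with sh2 and 19.2, 27.0 and 32.1 CPM with sh3. Only the highest sh3 tumor reached the control range. *Flt1*, the VEGF receptor that also acts as a decoy, ran from 26.9 to 48.5 CPM over the tumors and was highest in sh3 replicate 1, and *Tie1*, the orphan partner of TIE2, ran from 17 to 33.9 CPM and was lowest there. The list of 7 VEGF ligands and co-receptors had no gene with an unadjusted p under 0.05 in any of the 4 contrasts. Of all genes, 3.52% with sh2 to 7.18% for sh3 against sh2 passed. The median log2 fold change of this list was -0.10 with sh2 and -0.19 with sh3.

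The endothelial surface and junction genes had a median log2 fold change of -0.17 with sh2 and -0.26 with sh3, against 0.01 and 0.03 over all genes tested. All 16 were below 0 with sh3, from -0.46 to -0.02, where 45.1% of all genes were, and 12 of 16 with sh2, where 48.2% were. Without sh3 replicate 1 the median with sh3 was -0.10 and 11 of 16 were below 0, where 49.1% of all genes were. Without sh3 replicate 2 the median was -0.51. *Pecam1* was at 107, 80.1 and 98.9 CPM with the control, 93.1, 60.7 and 75.3 CPM with sh2 and 57.5, 96.0 and 85.5 CPM with sh3, and its log2 fold change with sh3 was -0.26 (95% interval -0.77 to 0.25) and -0.07 without sh3 replicate 1. *Cdh5*, the VE-cadherin of endothelial junctions, was at 72.7, 61.3 and 65.7 CPM with the control, 59.0, 59.3 and 52.3 CPM with sh2 and 43.4, 62.7 and 44.5 CPM with sh3. The sh2 tumors were all below the controls, whereas sh3 replicate 2 lay among them. The log2 fold change of *Cdh5* was -0.41 ± 0.16 with sh3 (unadjusted p = 0.0341, FDR = 0.753 by edgeR), and it was -0.31 without sh3 replicate 1.

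*Plvap* was at 62.2, 41.8 and 50.4 CPM with the control, 36.5, 32.2 and 45.1 CPM with sh2 and 40.2, 47.5 and 37.5 CPM with sh3. Its log2 fold change was -0.44 ± 0.19 with sh2 (unadjusted p = 0.0441, FDR = 0.999 by edgeR) and -0.28 without control replicate 1, the highest tumor. Of 27 other tested blood endothelial genes, 20 had a negative log2 fold change with sh3 against the control, with a median of -0.27, and 17 with sh2, with a median of -0.09, against 45.1% and 48.2% of all genes. Without control replicate 3 the median with sh3 was -0.15, with 18 negative, where 44.1% of all genes were. Those with an unadjusted p under 0.05 were *Stab2* and *Selp* with sh3, both lower (3.13% of all genes were), and *Car4* with sh2, which was higher in sh2 replicate 2 alone (12.8 CPM, against 0.305 to 1.90 CPM elsewhere).

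The endothelial transcription factor genes *Sox7*, *Sox17* and *Sox18*, of the SOXF group, and the ETS factor gene *Erg* were at low levels, between 0.813 and 20.6 CPM over all tumors, and none had an unadjusted p under 0.05. *Sox18* and *Erg* were highest in sh3 replicate 2 and lowest in sh3 replicate 1.

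The lymphatic genes followed single tumors. *Prox1*, the factor that sets lymphatic identity, had 5, 0 and 23 counts in the control tumors, 0, 0 and 2 in the sh2 tumors and 5, 0 and 1 in the sh3 tumors. *Lyve1*, the hyaluronan receptor of lymphatic endothelium and some macrophages, was at 1.06, 1.45 and 9.29 CPM with the control, 0.716, 0.435 and 2.80 CPM with sh2 and 5.96, 0.864 and 0.385 CPM with sh3. Both genes were highest in control replicate 3, and *Lyve1* next in sh3 replicate 1, the pair of tumors with the most muscle RNA. *Flt4*, which encodes the receptor for VEGF-C and is also found on tumor blood vessels, was at 32.0, 29.6 and 39.6 CPM with the control, 30.7, 15.3 and 24.0 CPM with sh2 and 22.1, 25.0 and 34.1 CPM with sh3, and its groups overlapped. All 5 tested genes of another lymphatic list were below 0 with sh3, with a median log2 fold change of -0.45, where 45.1% of all genes were, and 4 were with sh2, with a median of -0.77, where 48.2% were. Among them the chemokine gene *Ccl21a* was at 6.80 CPM in control replicate 3 and at 0.0414 to 1.66 CPM in the other tumors.

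Counted together, none of the 37 tested genes had an FDR under 0.05 in any contrast by edgeR, where 0% of all 14725 genes did. None did by DESeq2 either, where 0.0136% of all genes did with sh2, 0.279% with sh3, 0.0613% in the mean of both and 0.313% for sh3 against sh2. With sh3 against the control, 3 of 37 were lower at an unadjusted p under 0.05 (*Notch3*, *Tek* and *Cdh5*), against 3.13% of all genes, and none was higher, against 3.5%. With sh2 these numbers were 1 lower (*Plvap*), against 1.87%, and 1 higher (*Esm1*), against 1.64%. In the comparison of sh3 with sh2, 2 were lower (*Notch3* and *Kcnj8*), against 3.66%, and none higher, against 3.52%. For the mean of both constructs, 3 were lower (*Tek*, *Plvap* and *Cdh5*), against 2.74%, and 1 was higher (*Esm1*), against 1.35%. By direction alone, 33 of 37 log2 fold changes were below 0 with sh3, where 45.1% of all genes were, and 22 of 37 with sh2, where 48.2% were. The groups did not overlap for 3 of the 37 with sh3, all lower (*Mmrn2*, *Tek* and *Notch3*), against 5.44% of all genes, and for none in the other direction, against 6.78%. With sh2 they did not overlap for 2 lower genes (*Cdh5* and *Icam2*), against 5.83%, and 3 higher genes (*Emcn*, *Esm1* and *Kcnj8*), against 5.56%. For sh3 against sh2 they did not overlap for 3 lower genes (*Mmrn2*, *Notch3* and *Kcnj8*), against 4.62%, and for no higher gene, against 5.51%. For both constructs against the control no gene was apart, against 0.958% lower and 1.21% higher of all genes, and 27 of 37 values were below 0, against 45%. The members were chosen with these contrasts known, so the counts are descriptions.

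**Figure D3:**
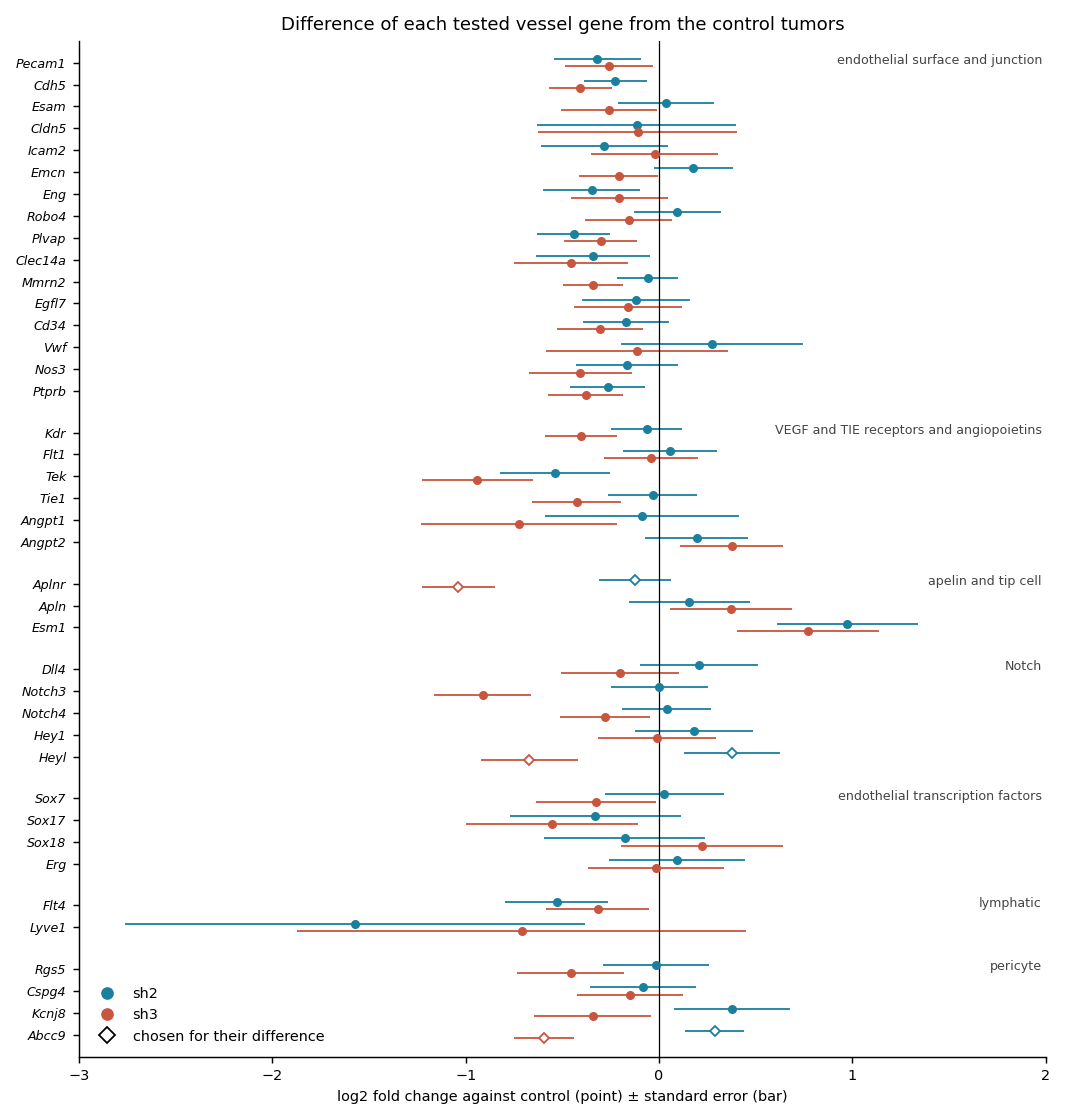
Log2 fold change against the control tumors of the 40 tested vessel genes, with sh2 and sh3 in separate colours and bars for the standard error, grouped by list. Open diamonds are *Aplnr*, *Heyl* and *Abcc9*, which were chosen for their difference, and most sh3 points lie left of 0 by less than 0.5.

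The sh3 tumors differed among themselves more than the others. The SD of log2 CPM among the 3 tumors of a group had a median over the 40 genes of 0.26 with the control, 0.16 with sh2 and 0.47 with sh3, against 0.18, 0.22 and 0.35 over all genes tested. Replicate 1 of sh3 was the lowest of the 9 tumors for 23 of the 40 genes, where 22.6% of all genes were lowest in it, and replicate 2 was the highest for 10 of the 40, where 22.2% of all genes were. The 23 include *Aplnr* and *Abcc9*, which were chosen for their difference, so this count is a description. On the deposited TPM, 14 rather than 23 genes were lowest in replicate 1 and 17 in replicate 3. Genes lowest in sh3 replicate 1 by CPM included *Pecam1*, *Cdh5*, *Kdr*, *Tie1*, *Dll4*, *Notch3* and *Rgs5*, and *Flt1* and *Cspg4* were highest there. Without sh3 replicate 1, 25 rather than 33 of the 37 log2 fold changes with sh3 were below 0, where 49.1% of all genes were, and the 3 genes under an unadjusted p of 0.05 were *Notch3*, *Tek* and *Cspg4*, all lower, as were 5.75% of all genes. Without sh3 replicate 2, 16 genes were under 0.05, all lower, *Tie1*, *Cd34*, *Cdh5* and *Esam* first among them, against 4.85% of all genes lower, so the count rests on which of these tumors is present.

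**Figure D4:**
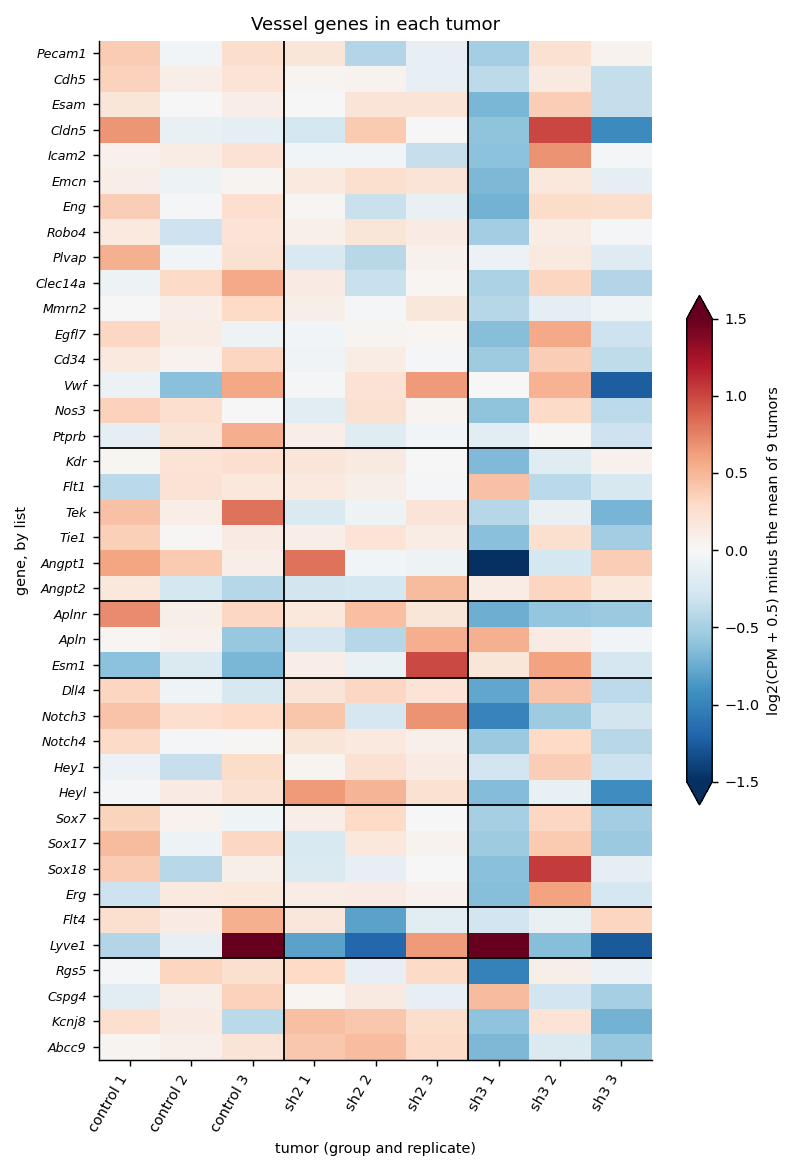
Level of each tested vessel gene in each tumor, as log2 of CPM plus 0.5 minus the mean of the gene over the 9 tumors, with blue for lower and red for higher and lines between lists and groups. The column of sh3 replicate 1 is blue for most genes, that of sh3 replicate 2 is mixed, and *Lyve1* is red in control replicate 3 and sh3 replicate 1.

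To set the members against vessel content, each was also read relative to the mean log2 CPM of 10 core endothelial genes, whose summed level was 321, 270 and 314 CPM with the control, 286, 258 and 268 CPM with sh2 and 185, 305 and 234 CPM with sh3, and of 5 mural genes, at 268, 247 and 251 CPM, 278, 185 and 267 CPM, and 130, 198 and 160 CPM. The core endothelial sums overlapped between all groups. The mural sums of the sh3 tumors and of sh2 replicate 2 lay below all controls. Of the mural genes, only *Notch3* and *Pdgfrb* had every sh3 tumor below every control, while *Rgs5*, *Cspg4* and *Kcnj8* overlapped. Most genes of both references are members, so this is a description of proportions. Relative to the core endothelial genes, the sh3 difference from the control was -0.64 (log2) for *Aplnr*, -0.33 for *Heyl*, -0.23 for *Abcc9* and -0.56 for *Notch3*, and all but *Heyl* kept sh3 below every control. Relative to the mural genes it was -0.46 for *Aplnr*, with no overlap, and -0.16 for *Heyl* and -0.06 for *Abcc9*, with overlap. Apart from these 3 genes and those of the reference, sh3 was below every control for 1 of 27 members (*Notch3*) relative to the core endothelial genes, against 0.971% of all genes, and for none of 33 relative to the mural genes, against 0.475%. For *Notch3* this was close to a tie, at 1.5938 (log2) in sh3 replicate 3 and 1.5945 in control replicate 3. Relative to the mural genes, 25 of the 32 members with a negative log2 fold change with sh3 had a positive one, among them all 16 surface and junction genes, and relative to the core endothelial genes 16 of 26 did. *Esm1* was higher relative to the core endothelial genes by 0.99 with sh2 and 1.11 with sh3, and *Angpt2* by 0.77 with sh3, each without overlap, where 9.92% of all genes did not overlap in that direction with sh2 and 19.3% with sh3.

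Levels of some other cell types were apart between groups, and those of others overlapped. The summed level of 8 fibroblast genes was 2360 to 4031 CPM with the control, 1833 to 2929 CPM with sh2 and 1119 to 1684 CPM with sh3, below all controls. Of these genes, 3 were lower with sh3 at an unadjusted p under 0.05 (*Col1a2*, *Col1a1* and *Lum*), against 3.13% of all genes. *Col1a1*, the fibrillar collagen chain, had a log2 fold change of -1.25 with sh3 (unadjusted p = 0.00199 by edgeR), and none of the 8 passed an FDR of 0.05. The 8 adipocyte genes summed to 42.3 to 92.4 CPM with the control, 8.65 to 67.7 CPM with sh2 and 8.56 to 20.5 CPM with sh3. The 12 skeletal muscle genes ran from 30.6 to 3826 CPM with the control, from 12.7 to 164 CPM with sh2 and from 114 to 1304 CPM with sh3. The adipocyte sums of all sh3 tumors were thus below all controls, and the muscle sums overlapped between groups. The 7 smooth muscle genes were at 304 to 492 CPM with the control, 249 to 369 CPM with sh2 and 216 to 359 CPM with sh3. The 8 macrophage genes were at 2060 to 2273 CPM, 1178 to 2016 CPM and 833 to 4028 CPM in the same order. Macrophage sums of the sh2 tumors were below all controls, while those of the sh3 tumors spread to both sides. The 8 carcinoma epithelium genes were at 3160 to 4561 CPM, 3518 to 7288 CPM and 3696 to 4114 CPM, and the 6 Schwann cell genes at 50.1 to 58.5 CPM, 55.5 to 71.5 CPM and 38.4 to 78.4 CPM. Mast cell genes summed to 18.8 to 40.6 CPM with the control and 13.3 to 22.1 CPM in the other tumors. The part of these other cell types in the differences of the vessel genes was not tested.

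**Figure D5:**
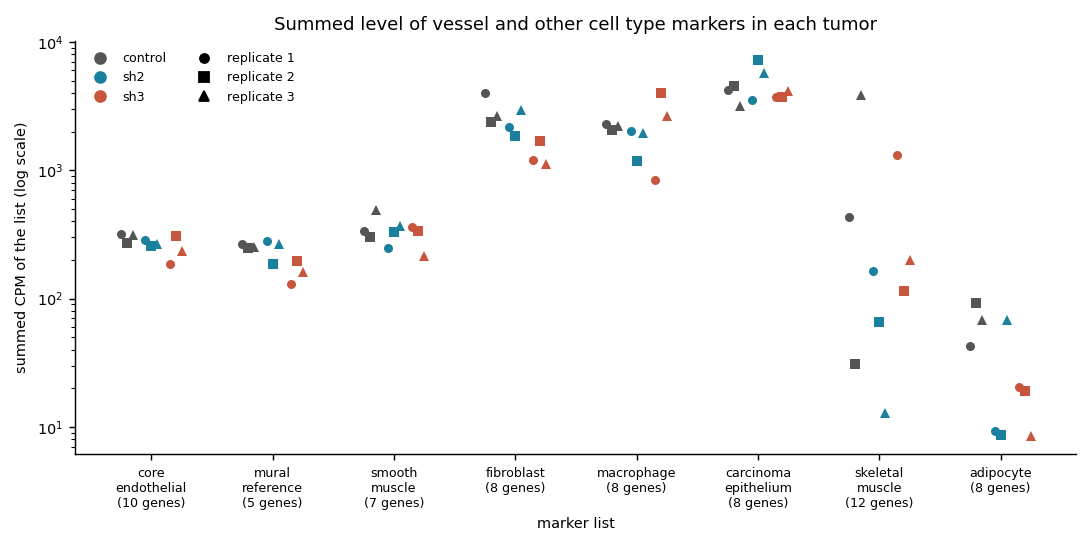
Summed CPM of marker lists in each tumor on a log axis, with colours for groups and symbols for replicates. The core endothelial and mural sums vary less between tumors than those of skeletal muscle and adipocytes, and the mural and fibroblast sums of the sh3 tumors lie below those of the controls. Of the mural genes, only *Notch3* and *Pdgfrb* have every sh3 tumor below every control.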

How the data were processed

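Expression was read from 9 KLN205 tumors, whose group and replicate number the labels give. The authors checked reads with FastQC, aligned them with STAR 2.5.3a and counted them with featureCounts (mm10 per the submitters' processing notes), and deposited raw counts for 19481 genes. The library kit keeps strand, but the strand setting of the counting is not given in the sources used here. The deposited CPM signal equals each count divided by the tumor's total and TMM factor, and TPM, also deposited by the authors, sums to 1000000 in each tumor. Columns of the authors' own edgeR comparisons (log fold changes, likelihood ratios, p-values and FDRs) were not used.

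Raw counts were fitted in R 4.3.3 with edgeR 4.0.16, all 9 tumors together, after filterByExpr by group (14725 genes) and TMM, with robust quasi-likelihood tests and Benjamini-Hochberg adjustment over all genes. The contrasts were sh2, sh3 and their mean against the control and sh3 against sh2. Log2 CPM for overlaps and references had a prior count of 2. Python 3.11.15 (pandas 2.3.3, matplotlib 3.10.9) was used for summaries and figures. Alternatives were DESeq2 1.42.0 (its size factors in edgeR, and its Wald test), the likelihood ratio test, no filter, a minimum of 10 counts in all tumors, fits restricted to the groups of a contrast, a replicate block, leaving out each tumor once, and the core endothelial and mural references. Simulated counts, 200 of whose genes were changed, were used to test the script. Nothing says that replicates shared a batch, and the p-values weigh a difference between groups against the spread between tumors of a group.

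The members and lists were chosen with earlier results of these data known. Named with the value in every tumor were *Aplnr*, *Heyl* and *Abcc9*, their partner and pathway genes, main endothelial and lymphatic markers, and members with an unadjusted p under 0.05. Of the genes of other lists at an unadjusted p under 0.05, only some were named. Older symbols were matched through RefSeq synonyms.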

Additional observations from a re-analysis of the deposited data

Results flagged for a closer look

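For *Heyl* and *Abcc9*, in CPM every sh2 tumor was above every control tumor and every sh3 tumor below. Of all genes tested, 5.56% did not overlap with the controls and were higher with sh2, and 5.44% did not overlap and were lower with sh3. The log2 fold change of sh3 against sh2 was -1.05 for *Heyl* and -0.88 for *Abcc9*, and that of sh2 against the control was 0.38 for *Heyl* and 0.29 for *Abcc9*. The difference was not tested, since both genes had been chosen for it. The smallest margin was that of *Heyl* in sh2 replicate 3, at 12.1 CPM, where the highest control tumor was also at 12.1 CPM. On the deposited TPM neither gene was apart between sh2 and the control, as sh2 replicate 3 was below control replicate 3 for *Heyl*, at 6.18 against 6.58 TPM, and level with it for *Abcc9*, at 8.87 TPM.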

How the results depend on the processing

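No alternative gave a vessel gene an FDR under 0.05, in any contrast. Over all genes DESeq2 gave 2 with sh2, 41 with sh3, 9 in the mean of both and 46 for sh3 against sh2, and the likelihood ratio test 0, 8, 8 and 14. At an unadjusted p under 0.05 the members' count with sh3 moved from 3 to 5 by DESeq2, where 8.11% of all genes passed, and on leaving out single tumors from 2 (without control replicate 3, 3.67% of all genes) to 16 (without sh3 replicate 2, 8.16%). With sh2 it moved from 2 to between 0 (without control replicate 1 or 3, 2.80% and 1.75%) and 3, in the mean of both from 4 to between 0 (without control replicate 3, 2.03%) and 10 (without sh3 replicate 2, 5.87%), and for sh3 against sh2 from 2 to between 1 and 13 (without sh3 replicate 2, 7.23%). Replicate numbers did not pair the tumors, as deviations from the group means correlated at -0.0992 on average in 9 pairs with the same number and 0.0519 in 18 others. The fit with a replicate block kept 0 genes under the FDR and gave 0 genes at an unadjusted p under 0.05 with sh2, 3 with sh3, 2 in the mean and 2 for sh3 against sh2, where 2.17%, 4.55%, 2.68% and 5.03% of all genes passed.

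Medians of the lists changed with the reference, by construction, and with single tumors. Here and below, the medians of the apelin, Notch and pericyte lists include *Aplnr*, *Heyl* and *Abcc9*, which were chosen for their difference. They are therefore descriptions only. Relative to the core endothelial genes, the median log2 fold change with sh3 was 0.0684 for surface and junction genes, -0.0767 for VEGF and TIE genes, 0.76 for the apelin and tip cell group, 0.0527 for Notch and -0.0750 for pericyte genes, that of the mean of both was -0.00868 for VEGF and TIE and 0.0927 for pericyte genes, and that of sh3 against sh2 was -0.12 for VEGF and TIE, 0.12 for apelin and -0.37 for pericyte genes. Relative to the mural genes, the values with sh3 were 0.24 for surface and junction, 0.0946 for VEGF and TIE, 0.93 for apelin, 0.22 for Notch, 0.31 for transcription factors and 0.0964 for pericyte genes, those of the mean were 0.0166 for VEGF and TIE, 0.13 for Notch and 0.12 for pericyte genes, and those of sh3 against sh2 were 0.37 for surface and junction, 0.18 for VEGF and TIE, 0.41 for apelin, 0.0615 for Notch, 0.30 for transcription factors and -0.0769 for pericyte genes. Relative to the mural genes 25 of 36 members turned from negative to positive with sh3, 14 in the mean and 22 for sh3 against sh2, and relative to the core endothelial genes 16, 8 and 7 of 30. Among them were, relative to the mural genes, *Cdh5* (0.12), *Pecam1* (0.27) and *Plvap* (0.26) with sh3 and *Tek* (0.16) for sh3 against sh2, and relative to the core endothelial genes *Plvap* (0.0860) and *Kcnj8* (1.5e-05) with sh3.

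On leaving out each tumor in turn, medians with sh3 ran from -0.51 to -0.10 for surface and junction, -0.59 to -0.28 for VEGF and TIE, -0.63 to -0.12 for Notch, -0.60 to 0.0306 for transcription factors, -1.42 to 0.36 for lymphatic and -0.70 to -0.34 for pericyte genes. The lymphatic median ran from -1.64 to -0.16 with sh2 and from -1.24 to 0.0983 in the mean of both. For sh3 against sh2 the ranges were -0.41 to -0.0132 for surface and junction, -0.45 to 0.21 for apelin, -0.84 to -0.17 for Notch, -0.66 to 0.0677 for transcription factors, -0.37 to 1.12 for lymphatic and -0.85 to -0.51 for pericyte genes. *Aplnr* with sh2 ran from -0.25 to 0.0693, the latter without control replicate 1, its highest tumor, and with sh3 it ran from -1.18 to -0.86. The depth limits *Prox1*, *Lyve1* and *Sox17*, which had under 10 to 227 counts in a tumor. With 3 tumors a group, small differences were not detectable.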
